A study of Mus musculus with 6 samples.

Results

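Cldn1, Krt83, Scin, Klhl14, Fhl2, Ncmap, Zfp990, Cpm, Lynx1 and Itgb2l are 10 of the 20097 genes listed for c-Kit-positive mouse bone marrow cells. They were chosen by their normalised reads in these 6 libraries, because their RNA was high in libraries of wild-type cells (WT), was close to nothing in libraries labelled Runx1 KO, and none of them is a classical marker of a blood lineage. That same contrast chose them, so their difference between the groups is described here and not tested. Selection for c-Kit, a growth factor receptor on the surface of stem and progenitor cells, enriches those cells. Bulk RNA was sequenced from 3 libraries with the genotype WT and 3 with the genotype Runx1 KO, a knockout of a transcription factor that directs blood development. The labels give neither the age, sex and strain of the mice nor how and when the gene was disrupted, and do not state whether the libraries came from separate animals, so every p-value measures the spread between these libraries. With bulk RNA, fewer cells of a type and less RNA per cell cannot be told apart.

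RUNX1 is the DNA-binding partner of a heterodimer that binds short TGTGGT-like sites and switches genes on or off along the myeloid, lymphoid and platelet lineages. The 10 genes belong to unrelated families that are mostly known from tissues other than blood. Cldn1 encodes a claudin, the membrane protein that seals tight junctions between epithelial cells. Krt83 encodes a type II hair keratin. Scin encodes scinderin, an actin-severing protein of the gelsolin family that is switched on by calcium. Fhl2 encodes a LIM-domain protein that acts as a transcriptional cofactor and is abundant in heart muscle. Cpm encodes carboxypeptidase M, a membrane-anchored enzyme that trims basic residues from the ends of peptides. Lynx1 encodes a small lipid-anchored LY6 protein that tunes nicotinic acetylcholine receptors in neurons. Itgb2l encodes a relative of the leukocyte integrin beta chain that is known from neutrophils. Klhl14 encodes a BTB and kelch domain protein, Ncmap a membrane protein of peripheral myelin, and Zfp990 a zinc finger protein.

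Libraries held between 23297526 and 26793380 reads. Values are normalised read counts, that is reads divided by a size factor per library, and 3 reads, taken as the floor of detection, corresponded to 2.88 to 3.14 normalised reads. The floor and all ratios with a counting interval cover counting error only. Runx1 itself had 3031, 2799 and 3497 normalised reads in WT and 6648, 6720 and 5830 in the libraries labelled Runx1 KO, a log2 change of 1.04 (SE 0.10, limma adjusted p = 0.00163). The gene-level count of the targeted gene was thus higher, not lower, in every library labelled Runx1 KO, and the exons behind those reads were not analysed here. Kit rose as well, by a log2 change of 0.60 (limma adjusted p = 0.00346). Of 15410 genes tested with limma, 3370 (21.9%) passed an adjusted p of 0.05, 1739 (11.3%) lower and 1631 (10.6%) higher, and every library labelled Runx1 KO lay below every WT library for 3375 (21.9%). Rescaling to library totals moved the median change of all genes by 0.08 on the log2 scale and gave 63.5% of 3758 calls as higher, against 48.4% before.

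WT replicate 2 went against its group for 2 of the 10 genes. Ncmap had 357 and 323 normalised reads in WT replicates 1 and 3 but 2.02 in WT replicate 2, beside 2.09, 1.98 and 2.98 in the libraries labelled Runx1 KO. Zfp990 had 572 and 529 in WT replicates 1 and 3, 0 in WT replicate 2, and 1.05, 1.98 and 0.995 in the libraries labelled Runx1 KO. For both genes the groups overlapped, neither passed the filter on low values, and the description of a gene high in WT held in 2 of 3 WT libraries. The other 8 genes passed the filter and their groups did not overlap, a separation for which the genes were chosen. Among all tested genes, every library labelled Runx1 KO lay below every WT library for 21.9%. Without WT replicate 2 the log2 difference of Ncmap went from -4.41 to -6.68 and that of Zfp990 from -4.87 to -7.90. Without WT replicate 1 they were -3.23 and -3.32, and without WT replicate 3 -3.31 and -3.38.

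**Figure D1:**
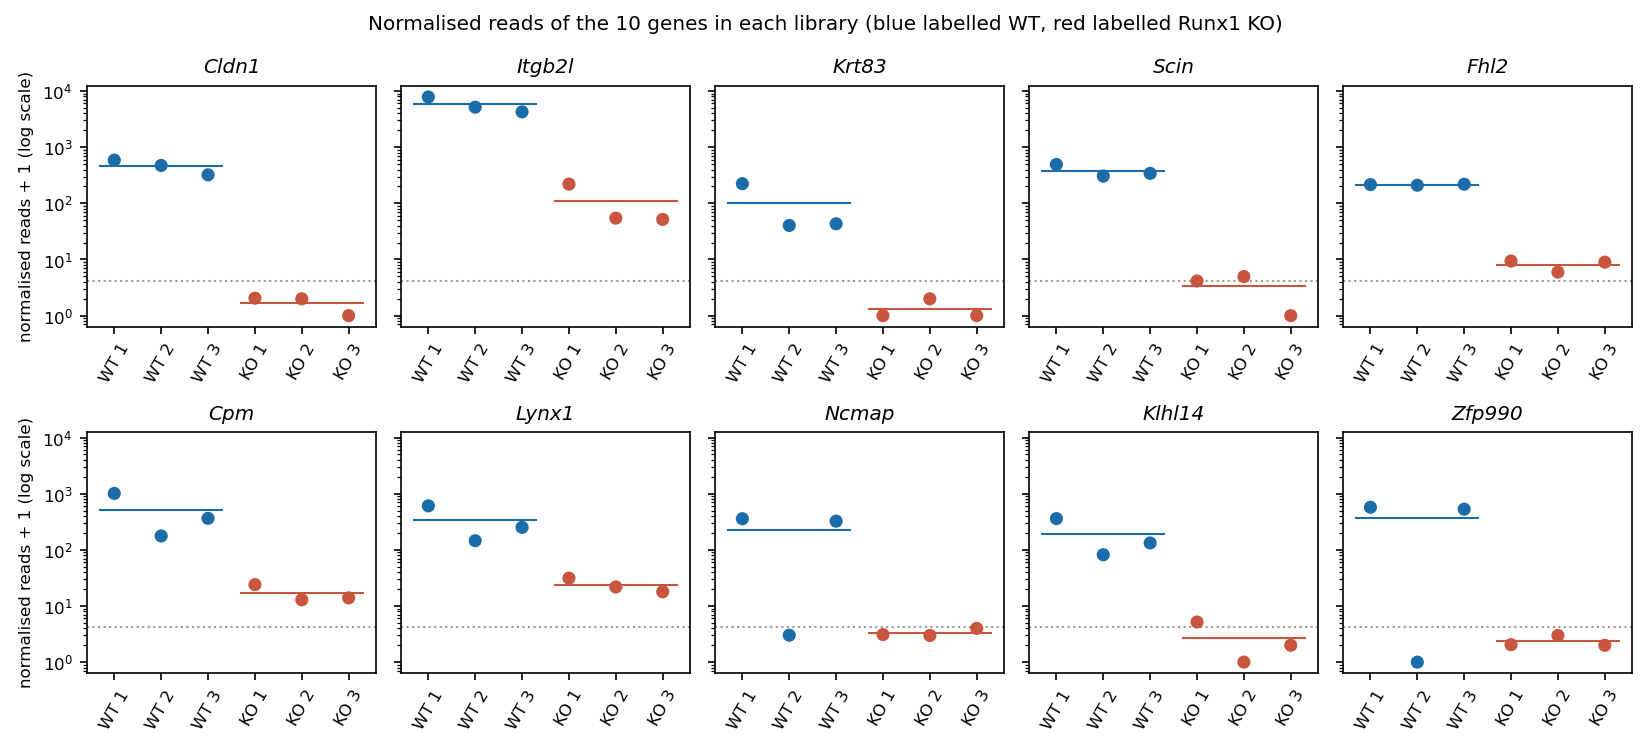
Normalised reads plus 1 (log axis) of each of the 10 genes in the 6 libraries. Points are libraries, horizontal bars are group means and the dotted line is the floor of 3 reads plus 1. In Ncmap and Zfp990 the point of WT replicate 2 sits at the level of the libraries labelled Runx1 KO.

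Falls of this depth were uncommon. Among 12303 listed genes with a WT mean of at least 50 normalised reads, 127 (1.03%) had a mean in the libraries labelled Runx1 KO under 10% of the WT mean, and all 10 genes were among them. Under 5% there were 57 genes (0.463%), which included 9 of the 10, and under 2% there were 16 (0.13%), which included 7. As the genes were picked for this, the counts only place them in the table. Cldn1 ranked 4th and Krt83 5th by the share that remained, after a long non-coding RNA (Gm34095) and the amino acid transporter gene Slc36a2, both without a read in the libraries labelled Runx1 KO, and Prss34, a serine protease gene of basophils, whose mean fell to 0.129%. Lynx1, with the largest remainder, ranked 70th at 6.80%. Over the 10 genes the log2 difference ran from -8.13 to -3.61 with a median of -5.36, beside a median of -0.00424 over all tested genes. In WT, levels per kilobase of exon ran from 43.0 normalised reads for Klhl14 to 126 for Scin in 9 of the genes, while Itgb2l stood at 1331.

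Cldn1 (ENSMUSG00000022512, chr16:26356642-26371841 in GRCm38, minus strand) had 587, 471 and 320 normalised reads in WT and 1.05, 0.991 and 0 in the libraries labelled Runx1 KO. The 3 latter libraries held 2 reads between them. The mean was 459 ± 134 in WT (SD, n = 3), and the ratio of reads was 680 with an exact interval of 188 to 5621 at 95%. None of the 50-base words of its exons occurs in another annotated gene. Other genes of the tight junction did not follow Cldn1. Of 38 claudin and junction genes on the list, 20 were in the files and 14 were tested, of which 2 rose, 0 fell and 12 did not pass. Tjp1, the scaffold that ties claudins to actin, rose from 477 ± 206 to 2268 ± 289 normalised reads (SD, n = 3 each, log2 change 2.33, SE 0.28, limma adjusted p = 0.00328). Jam3, a junctional adhesion molecule, rose by a log2 change of 1.77. Cldn15, the claudin with the highest level per kilobase, stood at 2066 ± 255 in WT and 2050 ± 219 in the libraries labelled Runx1 KO (SD, n = 3 each), a log2 change of -0.01 that became 0.07 when values were scaled to library totals.

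Krt83 (ENSMUSG00000067613, chr15:101485130-101491512, minus strand) had 223, 39.4 and 42.2 normalised reads in WT and 0, 0.991 and 0 in the libraries labelled Runx1 KO. WT replicate 1 was 5.27 times the higher of the other WT libraries, and 1 read remained in the libraries labelled Runx1 KO. The ratio of reads was 301, with an exact interval of 53.5 to 11908 at 95%. Without WT replicate 1 the log2 difference went from -5.86 to -5.05. Of its 50-base words, 22.1% also occur in other annotated genes, 18.8% in Krt86, so reads of the hair keratins could have been shared between them. Krt86 had 38.6, 4.04 and 7.67 normalised reads in WT, 17.3%, 10.3% and 18.2% of Krt83, and 0, 0.991 and 0 in the libraries labelled Runx1 KO. Krt81, another hair keratin, had 10.9, 6.05 and 0.959 in WT and 0 in all 3 others. Neither was abundant enough to be tested. Of 38 keratins, 29 were not in the files at all, including the epidermal Krt5 and Krt14. Of the 5 tested, 2 rose, Krt7 (log2 change 1.23) and Krt18 (0.49), both keratins of simple epithelia. The call of Krt18 was lost in 5 of the 6 fits with a library left out, with values from 0.41 to 0.52 there.

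Scin (ENSMUSG00000002565, chr12:40059769-40134228, minus strand) had 491, 305 and 341 normalised reads in WT and 3.14, 3.96 and 0 in the libraries labelled Runx1 KO. The means were 379 ± 98.7 and 2.37 ± 2.09 (SD, n = 3 each), and the ratio of reads was 161 (exact interval 77.8 to 401 at 95%). Without replicate 3 labelled Runx1 KO, which had no read, the log2 difference went from -7.08 to -6.36. Gsn, encoding gelsolin, which gives the family its name, also fell, from 4574 ± 977 to 770 ± 298 (SD, n = 3 each, log2 change -2.61, SE 0.27, limma adjusted p = 0.00216). Scin amounted to 8.70%, 6.996% and 9.14% of Gsn in the WT libraries and to 0.282%, 0.64% and 0% in the others. Of the 5 gelsolin family genes tested 3 fell and 0 rose, the others being the membrane-linker gene Svil with a log2 change of -0.53 and Flii, the most abundant per kilobase, with -0.33.

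Fhl2 (ENSMUSG00000008136, chr1:43123074-43196984, minus strand) had 215, 209 and 218 normalised reads in WT and 8.37, 4.96 and 7.96 in the libraries labelled Runx1 KO. It was the most even of the 10 genes across the WT libraries, with the highest 1.04 times the lowest. The mean went from 214 ± 4.50 to 7.09 ± 1.86 (SD, n = 3 each), 30.1-fold. Among 8 tested genes of the FHL, CSRP and CRIP families of LIM proteins, 2 fell and 0 rose. Csrp3, a muscle LIM protein, fell from 96.7 ± 10.1 to 22.6 ± 9.35 normalised reads (SD, n = 3 each, log2 change -2.14, limma adjusted p = 0.00776), and Csrp1 had a log2 change of -0.36.

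RefSeq promoter windows of GRCm38.p6, from 250 bases before to 50 after a transcript start, were found for 6 of the 10 genes, with 8 starts in all. They were searched on both strands for the RUNX motif, in the short form TGTGGT or else the form TGCGGT, and for the GATA motif, in the short form AGATAA, with TGATAA as another form, AGATAG as another form and TGATAG as the last. The RUNX letters occurred in 1 of the 8 windows and in 22.4% of 32851 promoters, and the GATA letters in 3 of the 8 and in 29.8%. The windows with a match are shown because these are the only ones of the 8 that held either motif, with the match in capitals and the strand of the gene, 5′ to 3′. They are the windows of Fhl2 at chr1:43163912-43164211 (minus strand, RUNX letters 145 bases before the start), Fhl2 at chr1:43196712-43197011 (minus strand, GATA letters 62 bases before), Scin at chr12:40134179-40134478 (minus strand, GATA letters 164 bases before) and Cldn1 at chr16:26371790-26372089 (minus strand, GATA letters 211 bases before). The windows of Ncmap, Cpm and Itgb2l held none of these letters. A match of 6 letters is a description of the window and no evidence of binding.
Fhl2, inner start: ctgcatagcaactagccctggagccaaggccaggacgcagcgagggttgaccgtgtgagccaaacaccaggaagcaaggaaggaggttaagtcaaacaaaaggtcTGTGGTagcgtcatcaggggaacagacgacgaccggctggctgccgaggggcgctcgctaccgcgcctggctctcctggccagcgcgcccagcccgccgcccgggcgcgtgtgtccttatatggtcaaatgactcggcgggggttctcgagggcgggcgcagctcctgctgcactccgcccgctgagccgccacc
Fhl2, outer start: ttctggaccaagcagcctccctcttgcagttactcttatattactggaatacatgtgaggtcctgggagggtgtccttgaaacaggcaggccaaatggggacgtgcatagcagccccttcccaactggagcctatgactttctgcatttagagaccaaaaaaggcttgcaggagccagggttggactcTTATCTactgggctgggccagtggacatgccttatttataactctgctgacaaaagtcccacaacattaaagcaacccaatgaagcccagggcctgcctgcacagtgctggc
Scin: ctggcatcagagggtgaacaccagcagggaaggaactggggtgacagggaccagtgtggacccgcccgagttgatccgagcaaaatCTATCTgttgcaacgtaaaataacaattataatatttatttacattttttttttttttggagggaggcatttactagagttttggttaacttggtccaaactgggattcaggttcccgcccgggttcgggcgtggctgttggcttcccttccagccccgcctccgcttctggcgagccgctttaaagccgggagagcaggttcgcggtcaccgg
Cldn1: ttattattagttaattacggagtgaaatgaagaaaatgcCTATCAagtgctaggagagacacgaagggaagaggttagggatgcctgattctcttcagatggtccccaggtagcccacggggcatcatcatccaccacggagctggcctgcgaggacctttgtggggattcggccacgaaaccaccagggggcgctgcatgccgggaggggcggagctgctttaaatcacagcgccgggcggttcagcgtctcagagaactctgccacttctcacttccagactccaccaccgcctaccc

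Cpm, Lynx1 and Klhl14 differed from Fhl2 in how much they varied between the WT libraries. Cpm (ENSMUSG00000020183, chr10:117629500-117687352, plus strand) had 1009, 176 and 363 normalised reads in WT and 23.0, 11.9 and 12.9 in the libraries labelled Runx1 KO. The means were 516 ± 437 and 15.9 ± 6.14 (SD, n = 3 each), 32.3-fold apart, and the highest WT library was 5.75 times the lowest. The log2 difference of -4.63 became -3.96 without WT replicate 1 and -5.22 without WT replicate 2. Of 6 other metallocarboxypeptidases tested 1 rose, Cpq with a log2 change of 0.66, and 0 fell. Cpa3, the mast cell carboxypeptidase and the most abundant per kilobase, had a log2 change of 0.40 that did not pass (limma adjusted p = 0.194). The nearest tested gene, Mdm2, which encodes the ubiquitin ligase of p53, lies on the opposite strand with its 3′ end 1.52 kb from the 3′ end of Cpm, and had 2456, 2007 and 1942 normalised reads in WT and 1765, 1748 and 1782 in the others (log2 change -0.27, limma adjusted p = 0.0847).

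Lynx1 (ENSMUSG00000022594, chr15:74747852-74753046, minus strand) had 606, 144 and 250 normalised reads in WT and 30.3, 20.8 and 16.9 in the libraries labelled Runx1 KO. The means were 334 ± 242 and 22.7 ± 6.91 (SD, n = 3 each), 14.7-fold apart, and Lynx1 was the only one of the 10 genes to keep more than 5% of its WT mean. Its neighbour 9.01 kb away is Ly6d, a LY6 gene used as an early mark of B-cell commitment, which fell from 2832, 690 and 1118 to 122, 25.8 and 19.9 (log2 change -4.99, SE 0.76, limma adjusted p = 0.00639). Lynx1 amounted to 21.4%, 20.9% and 22.4% of Ly6d in the WT libraries, to 24.8% in replicate 1 labelled Runx1 KO, and to 80.8% and 85.0% in the other two. On the other side Them6, 23.2 kb away, did not pass (log2 change -0.07). The LY6 and PLAUR domain genes had the most calls of the 10 families listed, with 8 of 13 tested lower and 2 higher, the progenitor antigen gene Ly6a at 1.21 and the complement inhibitor gene Cd59a at 1.14. Ly6g, the Gr-1 antigen of neutrophils, had a log2 change of -3.13 and Cd177, a neutrophil surface protein, one of -2.90. Without replicate 2 labelled Runx1 KO the call of Ly6g was lost at -2.87 (limma adjusted p = 0.0526). Ly6e, the most abundant per kilobase, had a log2 change of -0.39, a call that was lost in 4 of the 6 fits with a library left out, with values from -0.40 to -0.31 there.

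Klhl14 (ENSMUSG00000042514, chr18:21550377-21654718, minus strand) had 359, 80.7 and 131 normalised reads in WT and 4.18, 0 and 0.995 in the libraries labelled Runx1 KO. The means were 190 ± 148 and 1.73 ± 2.19 (SD, n = 3 each), and the ratio of reads was 113 (exact interval 48.2 to 350 at 95%). The log2 difference of -6.17 became -5.58 without WT replicate 1 and -6.80 without replicate 1 labelled Runx1 KO. The transcript 4930426D05Rik overlaps Klhl14 on the opposite strand, and it is not given in the sources used here whether counting used the strand. It had 87.1, 15.1 and 33.6 normalised reads in WT and 4.18, 0 and 0 in the others (log2 change -4.40, limma adjusted p = 0.0133), in the same order of WT libraries. Without replicate 2 labelled Runx1 KO its call was lost at -4.01 (limma adjusted p = 0.0531). Of 28 other kelch-like genes and Cul3 complex genes tested, 3 rose and 0 fell, with log2 changes of 0.35 in Klhl26, 0.42 in Klhl12 and 0.36 in Keap1, the sensor of oxidative stress. The most abundant per kilobase, Ivns1abp, had 9556 ± 573 in WT and 10001 ± 129 in the others (SD, n = 3 each), a log2 change of 0.07 that did not pass (limma adjusted p = 0.456).

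**Figure D2:**
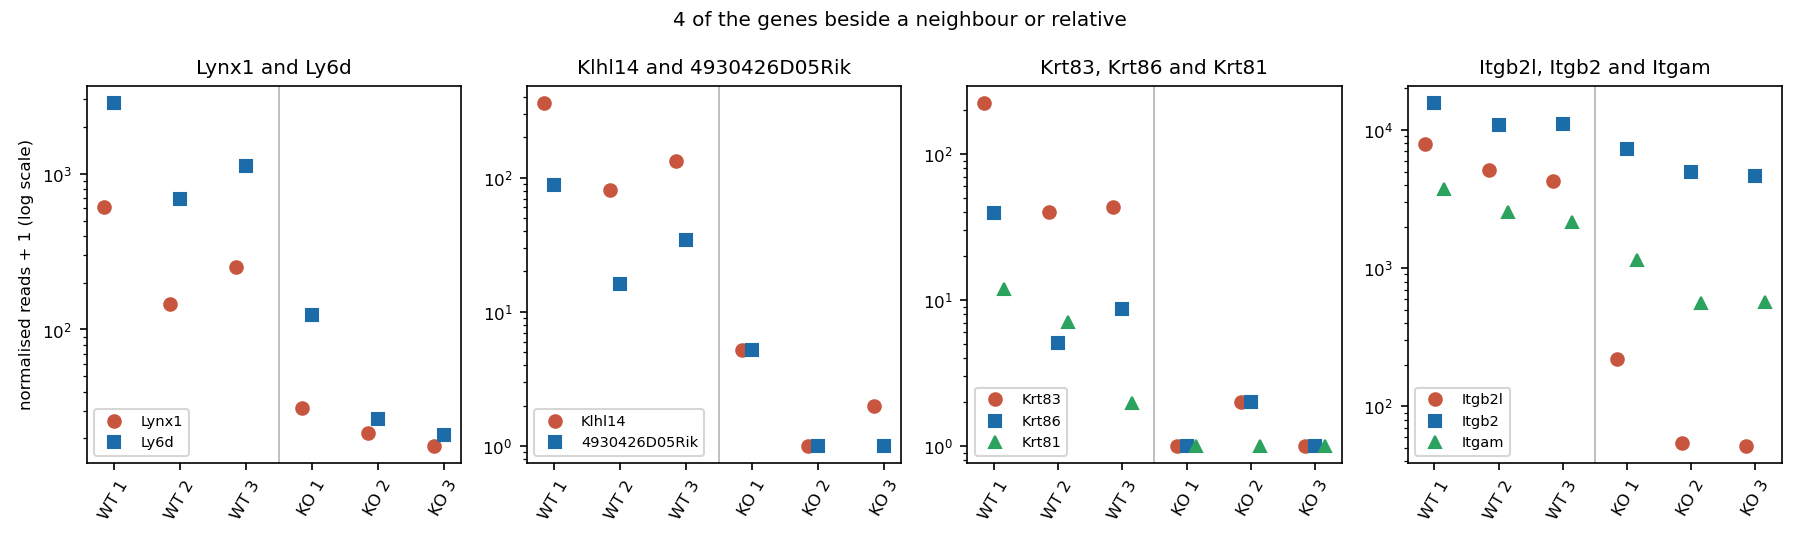
Normalised reads plus 1 (log axis) in each library for Lynx1 beside its neighbour Ly6d, Klhl14 beside the overlapping 4930426D05Rik, Krt83 beside the hair keratins Krt86 and Krt81, and Itgb2l beside the integrin genes Itgb2 and Itgam. The vertical line parts the WT libraries from those labelled Runx1 KO. Lynx1 and Ly6d share the order of WT libraries, and Itgb2l lies close to Itgb2 in WT but far below it in the other libraries.

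Itgb2l (ENSMUSG00000000157, chr16:96422288-96443619, minus strand) was the most abundant of the 10 genes, with 7845, 5158 and 4256 normalised reads in WT and 219, 53.5 and 50.7 in the libraries labelled Runx1 KO. The means were 5753 ± 1867 and 108 ± 96.1 (SD, n = 3 each), 53.5-fold apart. Replicate 1 labelled Runx1 KO was 4.09 times the higher of the other two, and without it the log2 difference went from -6.03 to -6.71. Itgb2, which encodes the functional beta chain of leukocyte integrins, fell from 12498 ± 2706 to 5641 ± 1474 (SD, n = 3 each, log2 change -1.16, SE 0.21, limma adjusted p = 0.0104), and Itgam, its alpha partner on myeloid cells, had a log2 change of -1.95. Itgb2l amounted to 50.2%, 47.2% and 38.9% of Itgb2 in WT and to 2.98%, 1.08% and 1.09% in the others. Set against Ltf, the lactoferrin gene of neutrophil granules, it amounted to 10.8%, 9.51% and 9.17% in WT and to 0.940%, 0.753% and 0.816% in the others. Its share of both genes was lower in every library labelled Runx1 KO than in any WT library. Itgb2l was chosen for its fall, so a lower share of genes that fell less follows from that choice and is no separate result. Of the 10 integrin genes tested 4 fell and 0 rose, the other two being Itgb5 (log2 change -0.54) and Itgb7 (-0.70), and scaling to library totals left 3 of these calls. Igsf5 overlaps Itgb2l on the opposite strand in the annotation.

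Ncmap (ENSMUSG00000043924, chr4:135369576-135398227, minus strand) and Zfp990 (ENSMUSG00000078503, chr4:145510759-145539188, plus strand) lie 10.1 Mb apart on chromosome 4. None of the 50-base words of Ncmap occurs in another annotated gene, whereas 29.1% of those of Zfp990 occur in others, 13.1% in Zfp987. Of 7 peripheral myelin genes tested 0 passed limma's adjusted p of 0.05 and 2 had an unadjusted p under 0.05, both lower, with 0 calls by edgeR and 1 by DESeq2. Of 14 tested zinc finger genes with numbers near Zfp990, 1 rose, Zfp994 with a log2 change of 0.33, and 0 fell. Zfp984, the most abundant per kilobase, stood at 1394 ± 20.8 in WT and 1639 ± 121 in the others (SD, n = 3 each, log2 change 0.23, limma adjusted p = 0.0566). The nearest tested genes on either side of Ncmap were Srrm1 and Rcan3 and those beside Zfp990 were Smarca5-ps and Gm13226, and none of the 4 passed, with limma adjusted p from 0.268 to 0.864.

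The pattern of Ncmap and Zfp990, with WT replicate 2 at the level of the libraries labelled Runx1 KO, was looked for in all genes after it had been seen in these. A gene was counted when WT replicates 1 and 3 were both at least 4 times WT replicate 2 and every library labelled Runx1 KO, on values plus 1. This held for 34 of the 20097 listed genes, against 1 when WT replicate 1 took the place of replicate 2 and 11 when WT replicate 3 did. Of the 34 genes, 7 lay on chromosome 4, which holds 5.89% of listed genes. With at least 50 normalised reads in WT replicates 1 and 3 there were 14, made up of 6 processed pseudogenes, 2 immunoglobulin genes and 6 protein-coding genes. The 4 on chromosome 4, Ncmap, Zfp990 and Angptl7 among them, spanned 13.1 Mb (chr4:135369576-148500460), a window drawn from these 4 genes themselves. All these counts include Ncmap and Zfp990, which prompted the search. Angptl7, an angiopoietin-like gene, had 94.0, 12.1 and 87.3 in WT and 5.23, 1.98 and 6.96 in the others. The window held 111 genes with at least 50 normalised reads in WT replicates 1 and 3, of which only 4 showed the pattern. In the opposite direction WT replicate 2 did not stand out, with 2 genes at least 4 times higher in it and all libraries labelled Runx1 KO, against 1 for WT replicate 1 and 2 for WT replicate 3. The 2 genes of WT replicate 2 were both on chromosome 4: Gm11868, a pseudogene, with 21.8, 413 and 15.3 in WT and 666, 375 and 365 in the others, and Cfap74. What WT replicate 2 shares with the libraries labelled Runx1 KO was not tested.

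**Figure D3:**
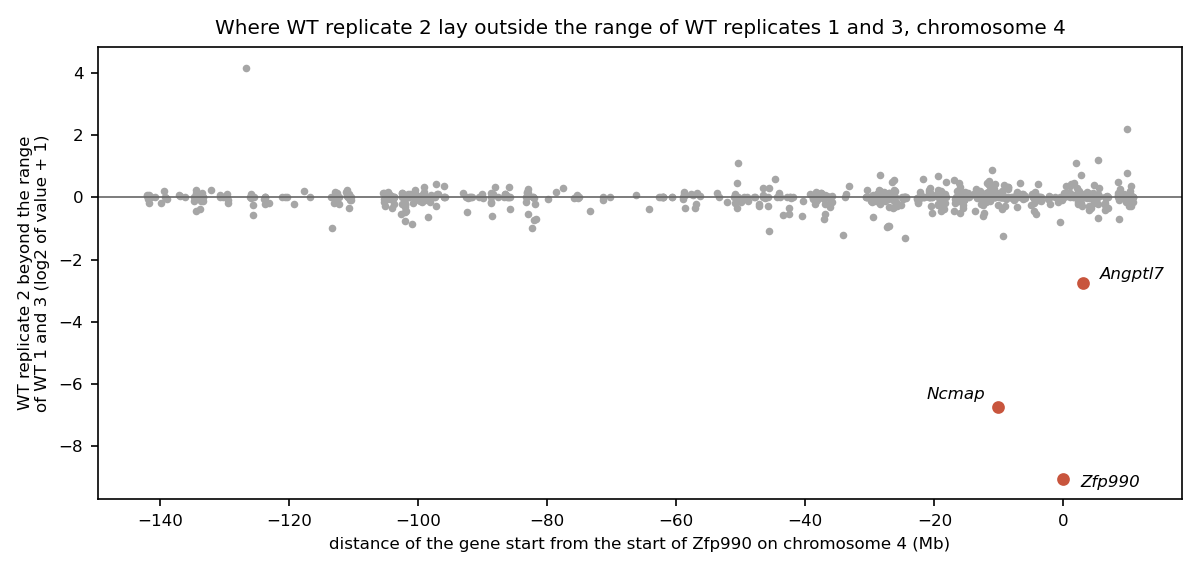
Genes of chromosome 4 with at least 50 normalised reads in some library, by the distance of their start from that of Zfp990 (Mb). The vertical axis gives how far WT replicate 2 lay above or below the range of WT replicates 1 and 3 on the log2(value + 1) scale, with 0 inside it, and Ncmap, Zfp990 and Angptl7 are in red, well below the other genes drawn. 1 gene that is not reported here is left out of the plot.

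The order of the WT libraries was compared among the remaining 8 genes. WT replicate 1 was highest, then 3, then 2 for Krt83, Scin, Cpm, Lynx1 and Klhl14, an order shown by 19.9% of the 15410 tested genes. For Krt83, Cpm, Lynx1 and Klhl14 WT replicate 1 was at least 2 times both other WT libraries, which held for 415 tested genes (2.69%). Cldn1 and Itgb2l had the order 1, 2, 3, shown by 16.7% of tested genes, and Fhl2 the order 3, 1, 2, shown by 13.6%. Of the 16 marker lists 7 also had the order 1, 3, 2 in their sums, namely B-lineage, basophil and mast cell, monocyte, megakaryocyte, epithelial, hair follicle and stromal markers. They differed in spread, the highest WT sum being 4.24 times the lowest for B-lineage markers and 1.10 to 1.68 times for the other 15 lists, beside 1.61 times for Scin. Summed over 16 genes, all of them tested and 11 lower, B-lineage markers came to 41755, 9837 and 16182 normalised reads in WT and to 4253, 1443 and 1539 in the libraries labelled Runx1 KO. Cd79b was the most abundant per kilobase. Klhl14 amounted to 6.02%, 6.19% and 5.57% of Pax5, the B-cell commitment factor, in the WT libraries, Cpm to 16.9%, 13.5% and 15.4%, and Lynx1 to 10.2%, 11.1% and 10.6%. Each of these shares thus varied by less than 1.5 times in WT while the genes themselves varied more than 4 times. In the libraries labelled Runx1 KO the shares were 1.29%, 0% and 3.57% for Klhl14, 7.07%, 42.9% and 46.4% for Cpm, and 9.32%, 75.0% and 60.7% for Lynx1. These shares rest on few reads, as Klhl14 had 4, 0 and 1 reads there and the mean of Pax5 fell to 3.96% of WT. Pax5 and Ly6d were taken for these ratios after the values had been seen.

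Neutrophil markers, 17 genes of which 11 were lower and 0 higher, summed to 469326, 409746 and 349478 in WT, the order of Itgb2l and Cldn1, and to 247166, 182016 and 169170 in the libraries labelled Runx1 KO. Replicate 1 labelled Runx1 KO was highest of its group in the sums of 11 of the 16 marker lists, these among them, and in Itgb2l, Cpm, Lynx1 and Klhl14. Basophil and mast cell markers, of which 5 of 10 tested were lower and 1 higher, summed to 18833, 14869 and 16400 in WT and to 15605, 16841 and 13989 in the others. Cpa3 was the most abundant of them per kilobase, with a log2 change of 0.40 that did not pass. The sum does not show the falls within the list, where the mean of Prss34 fell to 0.129% of WT, that of Fcer1a to 1.20% and that of Mcpt8 to 7.97%. Markers of c-Kit-positive stem and progenitor cells were higher for 8 of 12 and lower for none by limma, with Cd48 the most abundant per kilobase. Megakaryocyte markers were higher for 5 of 9 and endothelial markers, many of them shared with blood stem cells, for 5 of 9, with none lower by limma's adjusted p and 1 lower in each list by an unadjusted p under 0.05. Lower calls were 6 of 11 for erythroid, 5 of 11 for eosinophil, 3 of 15 for monocyte, 1 of 15 for T and NK cell and 4 of 8 for stromal markers, with 1 higher call in each of the eosinophil, monocyte and stromal lists. Of 12 dendritic cell markers 0 passed limma's adjusted p, and 1 was higher and 3 lower by an unadjusted p under 0.05, with 0 calls by edgeR and 2 by DESeq2, 1 in each direction. The part that the cell make-up of the libraries had in the values of the 10 genes was not tested. The description of the genes as lying outside the blood lineages rests on what most of them are known for, and does not hold for Itgb2l, which is known from neutrophils. Klhl14, Cpm and Lynx1 shared the order of WT libraries with the B-lineage sum, an order shown by 19.9% of tested genes. In the libraries labelled Runx1 KO their shares of Pax5 spread more widely than in WT, but few reads of Klhl14 and Pax5 remained there, so that spread is not read further.

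**Figure D4:**
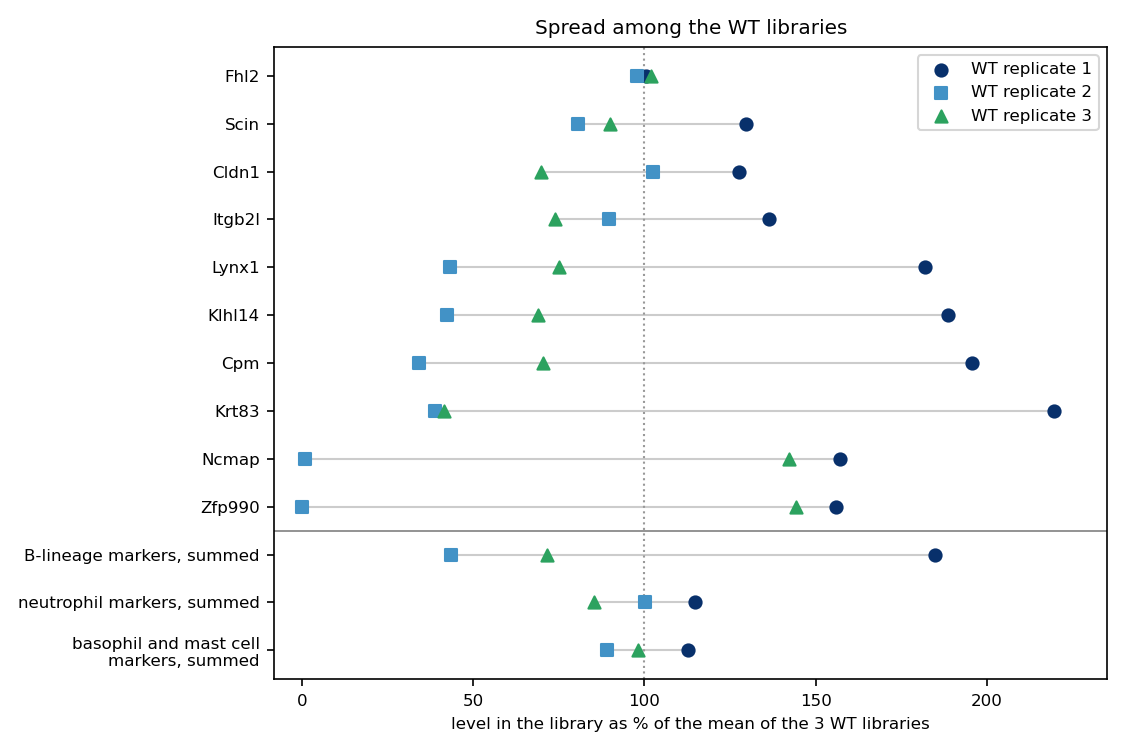
Level of each gene in each WT library as a percent of the mean of the 3 WT libraries, with the summed B-lineage, neutrophil, and basophil and mast cell markers below the line. Lynx1, Klhl14, Cpm and Krt83 spread as widely as the B-lineage sum with WT replicate 1 at the top, Fhl2 hardly spread, and Ncmap and Zfp990 have WT replicate 2 near 0.

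Many markers of the tissues for which the genes are best known were not in the files. Some that were, such as Ncam1, Trps1 and Cdh1, lay well above the floor. Of 13 epithelial markers 5 were not in the files (Krt5, Krt14, Krt19, Grhl2 and Esrp1), and of the 5 tested Krt18 rose and Cdh1 fell. Cdh1, which encodes E-cadherin and is also carried by some blood progenitors, had 279, 192 and 226 normalised reads in WT and 55.4, 21.8 and 20.9 in the others (log2 change -2.92). The epithelial sum was 1025 to 1152 in WT and 911 to 1163 in the libraries labelled Runx1 KO. Of 12 hair follicle markers 9 were not in the files, and the remainder was mostly Trps1. Of 14 markers of Schwann cells and neurons 7 were not in the files, among them Sox10 and S100b. Their sum, 1565 to 2072 in WT and 459 to 609 in the others, was mostly Ncam1, an adhesion molecule also known from blood cells, with 1771, 1523 and 1233 in WT and 123, 175 and 116 in the others. Of 12 muscle markers 7 were not in the files, and the sum was 178 to 239 in WT and 71.6 to 102 in the others, with Csrp3 the most abundant per kilobase. The files list only genes with at least 10 reads over the 6 libraries.

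Over all 10 families, 237 relatives were listed by name, 145 were in the files and 110 were tested. Of these 28 (25.5%) passed limma's adjusted p of 0.05, 11 higher and 17 lower, beside 21.9% of all tested genes, and their median log2 change was -0.04. The lower calls lay in 4 families, LY6 and PLAUR domain genes with 8, integrins with 4, gelsolins with 3 and LIM proteins with 2. Of the 20 nearest tested neighbours of the 10 genes 5 (25%) passed, 2 higher and 3 lower, with a median of -0.09. The higher ones were Krt7 and Nck2, an adaptor gene beside Fhl2 with a log2 change of 0.63. The lower ones were Ly6d, 4930426D05Rik and Il1rap, an interleukin receptor chain gene beside Cldn1 whose log2 change was -0.36. The call of Il1rap was lost in 4 of the 6 fits with a library left out, with values from -0.39 to -0.31 there.

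**Figure D5:**
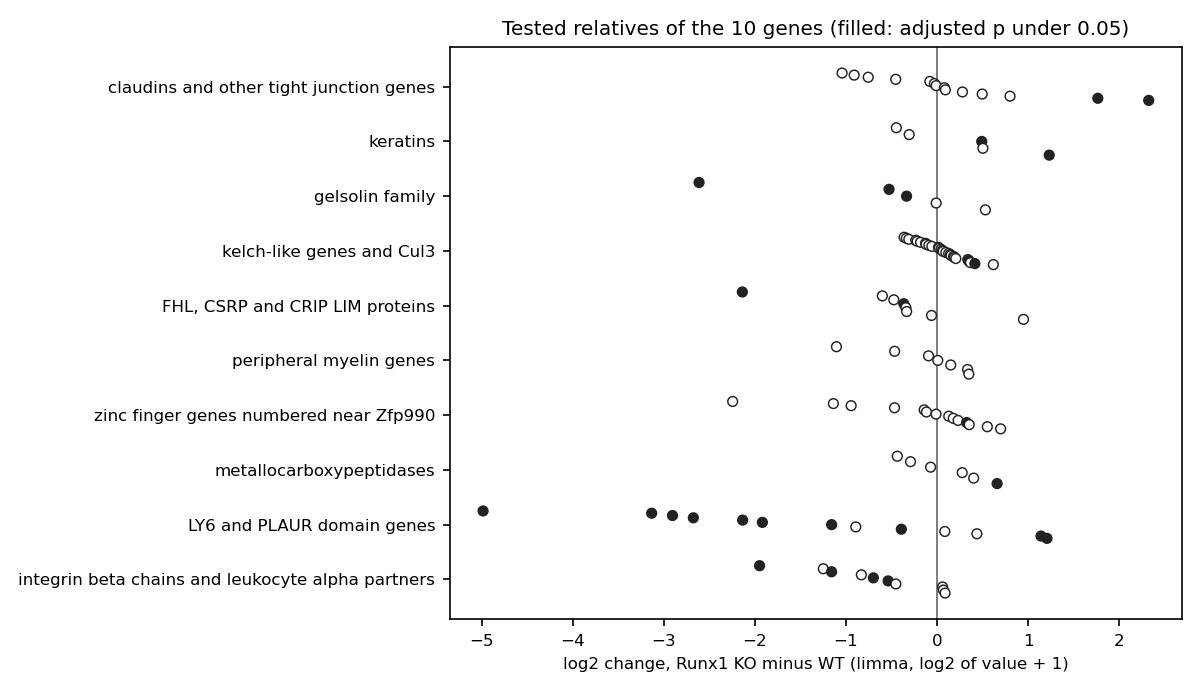
Log2 change (libraries labelled Runx1 KO minus WT, limma on log2 of value plus 1) of the 110 tested relatives, by family. Each point is a gene, filled where the adjusted p is under 0.05. Changes below -2.5 occur in the gelsolin family (Gsn) and among LY6 and PLAUR domain genes.

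Profiles like those of the 10 genes were sought among all tested genes, by the root mean square difference of centred log2(value + 1) over the 6 libraries, which follows mainly the depth of the fall. The 10 genes were chosen for that fall, so a close match is a description and no sign of shared control. Cpm had the closest match, Gm30211, a long non-coding RNA, at 0.11. Lynx1 was closest to Myzap at 0.20 and Hmgcll1 at 0.25, and Fhl2 to Cyp11a1, which encodes the first enzyme of steroid synthesis, at 0.25 and to the lipase gene Lipg at 0.31. Klhl14 was closest to Blk, a B-cell kinase gene, at 0.42 and to Spib, a transcription factor gene of B and plasmacytoid dendritic cells, at 0.60. Krt83 was closest to the immunoglobulin segment Ighv9-1 at 0.54 and to 4930597A21Rik at 0.60. Itgb2l was closest to Gm18860 at 0.49 and to Ms4a1, the gene of CD20, at 0.53. Ms4a1 had 4035, 941 and 1364 normalised reads in WT, another order of WT libraries than that of Itgb2l. Cldn1 was closest to Prss34 at 0.63 and Slc36a2 at 0.94, and Scin to Slc36a2 at 0.84 and Ms4a1 at 0.93. Genes that failed the filter on low values, as Ncmap and Zfp990 did, were not searched. Among tested genes Ncmap and Zfp990 had no close match, with Eno1b, an enolase gene, at 1.24 and 2.01, and the pseudogene BC002163 at 1.30 and 2.04. Eno1b and BC002163 showed the low value of WT replicate 2 too, Eno1b with 1501, 114 and 1467 normalised reads in WT and 77.4, 71.4 and 63.6 in the others. So did Gm4864, a pseudogene that was not tested, with 183, 2.02 and 181 in WT and 1.05, 0.991 and 3.98 in the others.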

How the data were processed

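Poly-A RNA of 6 libraries was made into stranded libraries and sequenced as 1 pool, per the labels' protocols. The submitters' processing notes name HISAT2, HTSeq 0.9.1 and the builds mm10 and GRCm38. The tool behind the scaling, the annotation and the strand setting are not given in the sources used here. The deposited values are a signal, worked out from the values to be reads per gene scaled by 1 factor for each library: in each of the 6 files every value was a whole multiple of the smallest, within a tolerance of 0.001. These multiples are called reads, and counting intervals and count models rest on them.

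limma 3.58.1 (lmFit, eBayes with trend, two-sided, Benjamini-Hochberg adjustment over 15410 genes) was fitted in R 4.3.3 to log2(value + 1) for genes passing filterByExpr of edgeR 4.0.16 (minimum count 10, total 15). Changes on this scale are understated for low genes. On simulated data the fits were tested for known changes. Positions and exon lengths came from GENCODE M21 (GRCm38) and promoters from RefSeq (GRCm38.p6). Protein sequences, and promoters of the other 4 genes, were not used here.

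The 10 genes and all lists were chosen with earlier results of these data known. Named beside them are Runx1, Kit, relatives past the threshold with a log2 change of at least 1 (at most 3 a family) and the most abundant relative, the nearest tested neighbours, the 2 closest profiles of each gene, and the most abundant gene of a marker list. Outside that rule, Svil, Cpq, Klhl26, Klhl12, Keap1, Itgb5, Itgb7, Zfp994, Ly6a and Cd59a were named because they passed the threshold. Genes named for the pattern of WT replicate 2, Krt81, Krt86, Ltf, Pax5, Fcer1a, Mcpt8, Cdh1, Ncam1, Sox10 and S100b were picked after their values were seen. A few genes that these rules name are not reported here. Replicate numbers are shared between the groups, but the deviations of same-numbered libraries correlated by 0.287, 0.129 and -0.01, so the numbers were not taken as pairs. Alternatives were edgeR's quasi-likelihood test and DESeq2 1.42.0 on the reads, scaling by library totals or TMM, pseudocounts of 0.5 and 5, other filters, a block on the number and each library left out.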

Additional observations from a re-analysis of the deposited data

How the results depend on the processing

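With all libraries kept, between 3182 and 3911 genes were called against 3370, 27 to 33 relatives against 28 and 4 to 6 neighbours against 5. With a library left out these ranges were 1349 to 3551, 18 to 26 and 3 to 6. Genes called fell to 2140 without WT replicate 2, 1349 without replicate 2 labelled Runx1 KO and 1743 without replicate 3 labelled Runx1 KO. Without replicate 1 labelled Runx1 KO, a fit with as few samples, 3551 were called. Relatives fell to 18 and neighbours to 3 without replicate 2 labelled Runx1 KO. The median log2 difference of the 10 genes, -5.36, was -4.25 with a pseudocount of 5 and -6.60 with edgeR, and ran from -6.47 to -4.90 with a library left out. Genes as steep as these, 127 under 10%, were 111 to 124 under other scalings and 75 to 207 with a library left out, the ends being those without WT replicate 1 and without replicate 1 labelled Runx1 KO. The cause was not tested.

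Cldn15, at -0.01, turned to 0.0735 with library totals and 0.00759 with TMM, and ran from -0.115 to 0.0522 with a library left out. The calls of Krt18 were lost in 5 of the 6 fits with a library left out, those of Ly6e and Il1rap in 4 each, and those of Ly6g and 4930426D05Rik without replicate 2 labelled Runx1 KO. On the recovered reads edgeR with TMM called 3261 genes, 3199 of them also called by limma, edgeR with DESeq2 size factors 3274 and DESeq2 3911, of which 3203 were also called by limma. They called 28, 27 and 33 relatives and 5 neighbours each. Zfp984 passed with library totals, with TMM in limma and with DESeq2, Cnp with DESeq2, and Cpa3 without replicate 3 labelled Runx1 KO.

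With a block for the replicate number, limma called 3843 genes, 1656 higher and 2187 lower, of which 3106 were also called without it. It called 32 relatives and 5 neighbours, left the median of the 10 genes at -5.36, and of the genes named gave a new call to Cnp alone.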
